A study of Mus musculus with 29 samples.

Results

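Connexins are the channel subunits of gap junctions, and 4 of their genes, Gja1, Gja4, Gja5 and Gjc1, were examined in C2C12, mouse myoblasts kept as a cell line that fuse into myotubes when serum is withdrawn. They were 4 of 19938 genes measured and 4 of 16 connexin genes that had a probe set of their own. The genes were chosen with their differences from the control known, and each was represented by its only probe set carrying that single symbol. Their differences from the control are therefore given as measurements without p-values. Proliferating cells at passage 27 received 50 nM of a mimic for 36 h, with 3 independent transfections each. The mimics were Let-7b and miR-1, then miR-22 and miR-29a, and lastly miR-34a, miR-145 and miR-365. The control transfection, AllStar from Qiagen, is a small RNA designed to match no transcript, and its 3 transfections were each hybridised a further time as a technical repeat. Each repeat was averaged with the array of the same number, which left 3 control values. A single array each came from a terminally differentiated myotube culture and from an untransfected myoblast culture at 70% confluence. Neither has a replicate.

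A gap junction channel joins the cytoplasm of neighbouring cells and lets ions and small metabolites pass. Each cell contributes a ring of connexin subunits, and the mix of connexins sets conductance and permeability. In skeletal muscle, connexins are found mostly in myoblasts and regenerating fibres before and around fusion, and mature innervated fibres largely lack them. Gja1 encodes Cx43, the most widespread connexin, and has been described as a target of miR-1 in heart and skeletal muscle. Gja5 encodes Cx40 of atrial muscle, the cardiac conduction system and arterial endothelium. Gja4 encodes Cx37 of endothelium and oocytes, and Gjc1 encodes Cx45 of the conduction system, the early heart and smooth muscle.

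A mature microRNA finds its targets mainly through its seed, bases 2 to 8 from the 5′ end. The labels name the mimics without stating the arm. For 5 of the 7 mimics the mature sequence of the arm usually meant by the name is shown, 5′ to 3′ with the seed in capitals, because the mimic is what sets the transfected groups apart in the labels. The sequences are those of RefSeq on GRCm38.p6.
mmu-let-7b-5p: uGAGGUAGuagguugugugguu
mmu-miR-22-3p: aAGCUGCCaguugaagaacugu
mmu-miR-29a-3p: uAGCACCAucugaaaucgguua
mmu-miR-34a-5p: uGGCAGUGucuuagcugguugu
mmu-miR-365-3p: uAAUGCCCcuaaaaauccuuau
No seed was shared among these 5. The mimics miR-1 and miR-145 are named only.

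Values are log2 of the array signal after RMA, the normalization the authors deposited. The level of a probe set was called dim below 6.67, the median over probe sets with no listed gene. Medians of the arrays lay between 7.24 and 7.39. Within their groups, miR-145 replicate 3 and miR-1 replicate 3 stood farthest from their group means, with root mean square deviations over all genes of 0.194 and 0.151. Of 8 myoblast and muscle lineage markers, among them Myod1, Myf5 and Des, none was dim in any group. Of 11 endothelial markers, 6 or 7 were dim in every group, and their mean lay between 6.44 and 6.57. Of 6 leukocyte markers 4 were dim in every transfected group. The untransfected myoblast array stood apart from the transfected cells, since its mean over 10 muscle differentiation markers was 11.76, against 10.05 in the control. In the myotube array that mean was 12.7.

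Gja1 was lower under miR-1 than under any other mimic, and higher under Let-7b and miR-145. Its values were 9.93, 9.99 and 9.43 in miR-1 cells, against 10.93, 10.98 and 10.82 in control cells. All 3 miR-1 values lay below all control values, with replicate 3 the lowest. The mean was 9.78 ± 0.305 in miR-1 cells and 10.91 ± 0.0802 in control cells (SD, n = 3 each), a difference of -1.13 ± 0.102 (SE from the model) or 2.18-fold lower. Without miR-1 replicate 3 the difference was -0.95. In bulk RNA, fewer cells of a type and less RNA per cell cannot be told apart.

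Gja1 read 11.40, 11.22 and 11.33 in Let-7b cells and 11.32, 11.25 and 11.31 in miR-145 cells. All 6 of these values lay above the 3 control values. The differences were 0.40 ± 0.102 under Let-7b and 0.38 ± 0.102 under miR-145 (SE), or 1.32-fold and 1.3-fold higher. The other mimics moved it less. It read 10.99, 11.11 and 11.16 in miR-365 cells, just above the control values, with a difference of 0.18. It read 10.78, 10.58 and 10.63 in miR-29a cells and 10.69, 10.77 and 10.65 in miR-34a cells, just below them, with differences of -0.25 and -0.21. In miR-22 cells the values were 11.06, 11.16 and 10.95, which overlapped the control, and the difference was 0.15. In order of group means Gja1 ran Let-7b, miR-145, miR-365, miR-22, control, miR-34a, miR-29a and miR-1. Neighbours in that order whose values did not overlap were miR-145 and miR-365, control and miR-34a, and miR-29a and miR-1, with gaps between means of 0.21, 0.21 and 0.88.

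Gja5 showed the widest spread of the 4 genes, with its highest values under miR-34a and its lowest under miR-365 and Let-7b. It read 9.90, 9.42 and 9.36 in miR-34a cells, against 7.63, 7.37 and 7.49 in control cells. The lowest miR-34a value stood well above the highest control value. The mean was 9.56 ± 0.3 in miR-34a cells and 7.50 ± 0.13 in control cells (SD, n = 3 each), a difference of 2.06 ± 0.175 (SE) or 4.17-fold higher. The range without each of the replicates in turn was 1.89 to 2.16.

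Under miR-365 Gja5 read 6.83, 6.74 and 6.96, and under Let-7b it read 6.88, 6.86 and 6.92. All 6 values lay below the control and within 0.3 of the dim level. The differences were -0.66 ± 0.175 and -0.61 ± 0.175 (SE), or 1.57-fold and 1.52-fold lower on the array scale. Under miR-1 it read 7.80, 8.06 and 8.27, all above the control, with a difference of 0.55 ± 0.175. The values overlapped the control under the other mimics. They were 7.59, 7.99 and 7.85 in miR-29a cells (difference 0.31), 7.71, 7.71 and 7.61 in miR-22 cells (0.18) and 7.23, 8.13 and 8.01 in miR-145 cells (0.29). The miR-145 group rests on a low replicate 1, without which its difference was 0.57. The order of means was miR-34a, miR-1, miR-29a, miR-145, miR-22, control, Let-7b and miR-365. The only neighbours whose values did not overlap were miR-34a and miR-1, with a gap of 1.51, and control and Let-7b, with a gap of 0.61.

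Gjc1 was lower under miR-1 and miR-22, to nearly the same level. It read 8.69, 8.58 and 8.41 in miR-1 cells and 8.68, 8.74 and 8.34 in miR-22 cells, against 9.79, 9.66 and 9.66 in control cells. Both groups lay below every other transfected group, and they overlapped each other. Means were 8.56 ± 0.142 in miR-1 cells, 8.59 ± 0.218 in miR-22 cells and 9.70 ± 0.0741 in control cells (SD, n = 3 each). The differences were -1.14 ± 0.0941 and -1.12 ± 0.0941 (SE), or 2.21-fold and 2.17-fold lower. Without miR-22 replicate 3 the second was -0.99.

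Under the other 5 mimics Gjc1 stayed nearer to the control. It read 9.54, 9.39 and 9.30 in miR-365 cells, a difference of -0.29. It read 9.55, 9.44 and 9.48 in miR-34a cells (-0.21), 9.65, 9.52 and 9.50 in miR-145 cells (-0.15) and 9.62, 9.64 and 9.61 in miR-29a cells (-0.08). Each of these groups lay below all 3 control values, though the miR-29a difference was smaller than its SE of 0.0941. In Let-7b cells the values were 9.76, 9.64 and 9.62, which overlapped the control, and the difference was -0.03. In the order control, Let-7b, miR-29a, miR-145, miR-34a, miR-365, miR-22 and miR-1, only miR-365 and miR-22 were neighbours without overlap, with a gap of 0.83.

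Gja4 was dim in every transfected group. It read 6.32, 6.06 and 6.26 in miR-22 cells, against 6.42, 6.51 and 6.53 in control cells, and these were the only mimic values to lie apart from the control. The difference was -0.27 ± 0.0837 (SE). Both levels are below the dim level, so no fold is given. The other 18 mimic values lay between 6.34 and 6.59, and the other 6 differences lay between -0.07 and 0.00. Among neighbours in the order of group means, only miR-1 and miR-22 did not overlap, with a gap of 0.20.

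**Figure D1:**
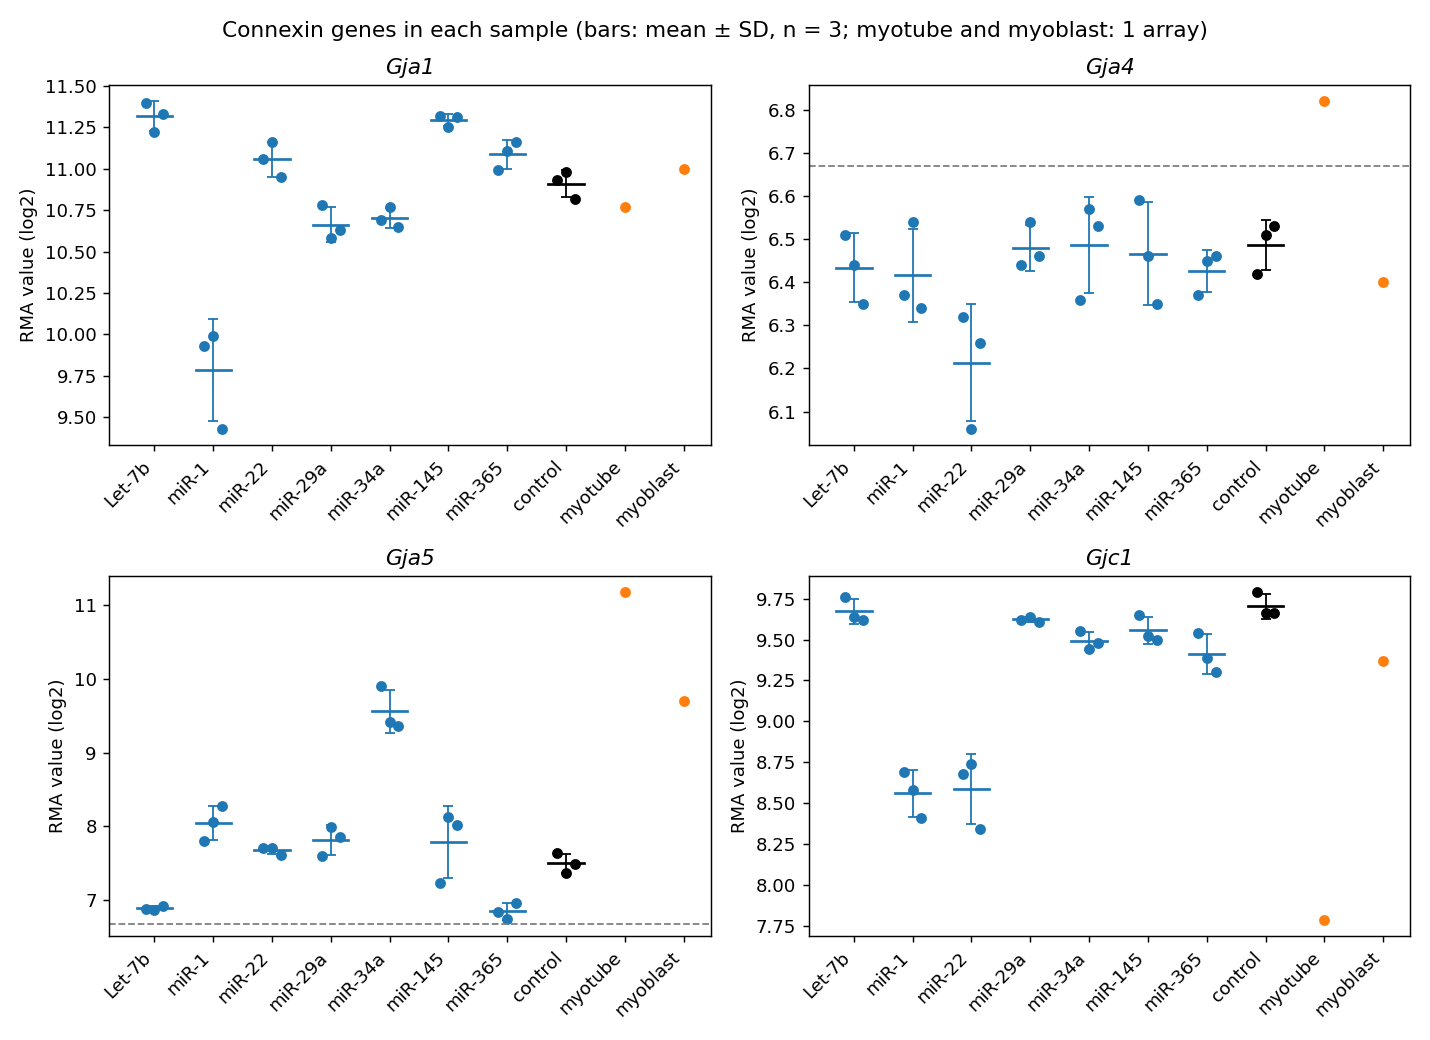
Log2 array signal of Gja1, Gja4, Gja5 and Gjc1 (vertical axis, one panel each) in every sample, with the 7 mimics left of the control and the myotube left of the untransfected myoblast. Points are samples, bars are means ± SD of 3 values, and the dashed line is the dim level. Gja1 is lowest in miR-1 cells at 9.78, Gja5 highest among transfected cells in miR-34a cells at 9.56, and Gjc1 lowest among transfected cells in miR-1 and miR-22 cells at 8.56 and 8.59.

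The share of all 19938 genes that passed limma's moderated test (adjusted p threshold 0.05, Benjamini-Hochberg over all genes, two-sided) is the background for these 4. Under Let-7b, 5.46% of genes were higher and 5.46% lower, and Gja1 was among the first and Gja5 among the second. Under miR-1 the shares were 13.2% higher, with Gja5 among them, and 10.5% lower, with Gja1 and Gjc1 among them. Under miR-22 they were 8.82% and 5.67%, with Gja4 and Gjc1 among those lower. Under miR-29a they were 5.54% and 4.78%, and none of the 4 genes was included, with 1 of 4 at an unadjusted p under 0.05. Under miR-34a they were 5.62%, with Gja5 among them, and 6.06%. Under miR-145 they were 3.85%, with Gja1 among them, and 3%. Under miR-365 they were 11.7% and 8.33%, with Gja5 and Gjc1 among those lower. Over the 7 mimics together, 7.74% of all gene and mimic pairs were higher and 6.26% lower. The 4 genes made 11 of 28 pairs, 4 higher and 7 lower. Since the genes were chosen on these differences, nothing is read from the count.

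Of the 11 pairs, 5 stayed past the threshold in all alternatives run, namely Gja1 and Gjc1 under miR-1, Gjc1 under miR-22, and Gja5 under miR-34a and miR-365. The other 6 lost the call in an alternative. The genes were chosen with these differences known, so the calls describe how the fit depends on its settings and samples. They are no support for the differences. Gja1 under Let-7b did not pass without control replicate 3 or Let-7b replicate 1 (0.36 each). Gja1 under miR-145 did not pass without control replicate 1 or 3 or miR-145 replicate 1 or 3 (0.34 to 0.39). Gja5 under Let-7b did not pass without control replicate 1 or 3 or any one Let-7b replicate (-0.62 to -0.54). Gja5 under miR-1 did not pass without control replicate 2 or 3 or miR-1 replicate 2 or 3 (0.43 to 0.54). Gjc1 under miR-365 did not pass without any one control replicate or miR-365 replicate 2 or 3 (-0.31 to -0.24). Gja4 under miR-22 did not pass without replicate 2 or 3 of either group (-0.30 to -0.20), nor in a model without the other 6 mimics. Gja5 under miR-145 passed only without miR-145 replicate 1. Gjc1 under miR-34a, at -0.21, passed with the replicate block. All 7 mimics were set against the same 3 control values.

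**Figure D2:**
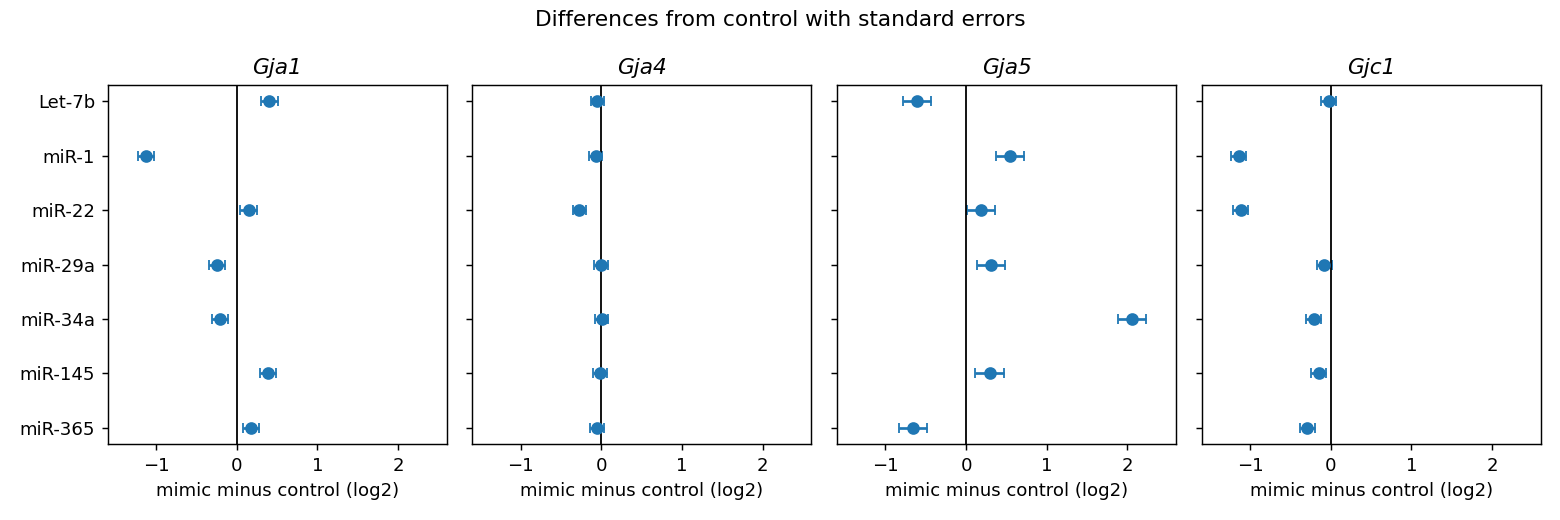
Difference of each mimic from the control in log2 (horizontal axis, mimic minus control) for the 4 genes, with mimics down the page. Points are model estimates and bars are standard errors, from 0.0837 for Gja4 to 0.175 for Gja5. Gja5 under miR-34a stands at 2.06, and Gja1 under miR-1 and Gjc1 under miR-1 and miR-22 stand between -1.14 and -1.12.

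The 4 genes differed in direction under single mimics. Under miR-1, Gja1 and Gjc1 were lower by about the same amount, at -1.13 and -1.14, while Gja5 was 0.55 higher. Under miR-22 Gjc1 was at -1.12, and Gja1 was 0.15 higher with values that overlapped the control. Under Let-7b Gja1 was 0.40 higher and Gja5 was at -0.61. The median difference of the 4 genes was -0.60 under miR-1 and between -0.17 and 0.14 under each of the other mimics, beside all-gene medians between -0.01 and 0.04. Over the 24 values the Pearson correlation was 0.54 between Gja1 and Gjc1, 0.53 between the dim Gja4 and Gjc1, -0.41 between Gja1 and Gja5, -0.12 between Gja5 and Gjc1, 0.06 between Gja4 and Gja5 and -0.03 between Gja1 and Gja4. These correlations describe 8 groups measured on shared arrays and carry no test.

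Muscle differentiation markers were higher than in the control under several of the same mimics. Of 10 such genes, among them Myh3, Actc1, Ckm and Ttn, 8 rose under miR-1, 6 under miR-22, 5 under miR-34a, 3 under miR-29a and 2 under miR-145, with none falling. Under Let-7b 2 fell, and under miR-365 none passed, with 2 at an unadjusted p under 0.05. The mean over the list ranged from 10.46 to 11.03 in miR-1 cells, from 10.69 to 10.76 in miR-34a cells and from 10.6 to 10.76 in miR-22 cells, against 9.94 to 10.16 in control cells. In Let-7b cells it ranged from 9.28 to 10.05. Gja5 was higher under miR-34a and miR-1 and lower under Let-7b, and Gjc1 was lower under miR-1 and miR-22. Gja5 was also lower under miR-365, and its miR-22 values overlapped the control. Gjc1 differed by only -0.21 under miR-34a, and by -0.03 under Let-7b with values that overlapped the control. The part of differentiation state in these differences was not tested. Endothelial markers passed under no mimic, also at an unadjusted p under 0.05 (0 of 77 pairs). Of 7 smooth muscle markers, 3 each fell under Let-7b, miR-1 and miR-365, 3 rose under miR-145 and 1 rose under miR-29a, and their list means lay between 9.91 and 10.65. Of 7 fibroblast markers, 3 fell under miR-29a and 1 each under miR-1 and miR-34a, while 1 each rose under Let-7b, miR-22, miR-34a and miR-365. Of 8 myoblast and muscle lineage markers, 10 of 56 pairs rose and 6 fell, and of 42 leukocyte marker pairs none passed, with 2 at an unadjusted p under 0.05 in limma. Over all genes 7.74% of pairs rose and 6.26% fell. The part of these markers in the connexin differences was not tested.

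The untransfected arrays show the 4 genes in cells without a mimic. Gja5 read 11.18 in the myotube array and 9.70 in the myoblast array, a difference of 1.47 or 2.78-fold. Gjc1 read 7.79 in the myotube array and 9.37 in the myoblast array, a difference of -1.57 or 2.98-fold lower. Gja5 was thus highest, and Gjc1 lowest, in the myotube array of all samples. Gja1 read 10.77 in the myotube array, a difference of -0.24 from the myoblast array. Gja4 read 6.82 in the myotube array, the only sample in which it was above the dim level, and 6.40 in the myoblast array. With 1 array each there is no test. The myoblast array already had a mean of 11.76 over the muscle differentiation markers, against 12.7 in the myotube array and 10.05 in the control. As background, 2.71% of all genes were higher and 2.01% lower in the myotube array by 1 or more in log2.

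Gja5 also differed between transfected and untransfected myoblasts. Its control mean was 7.50, against 9.70 in the untransfected myoblast array, a difference of -2.21 or 4.61-fold lower. Of all genes, 0.286% were higher and 1.21% lower by 1 or more in the control than in that array. The miR-34a mean differed from the untransfected myoblast by -0.14, and the other 6 mimic means lay from -2.86 under miR-365 to -1.66 under miR-1. For Gja1, Gja4 and Gjc1 the control mean was -0.09, 0.08 and 0.34 from the untransfected myoblast. The mean of muscle differentiation markers was lower in the control than in that array as well. Transfection, culture time, confluence and differentiation state cannot be told apart in this comparison.

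**Figure D3:**
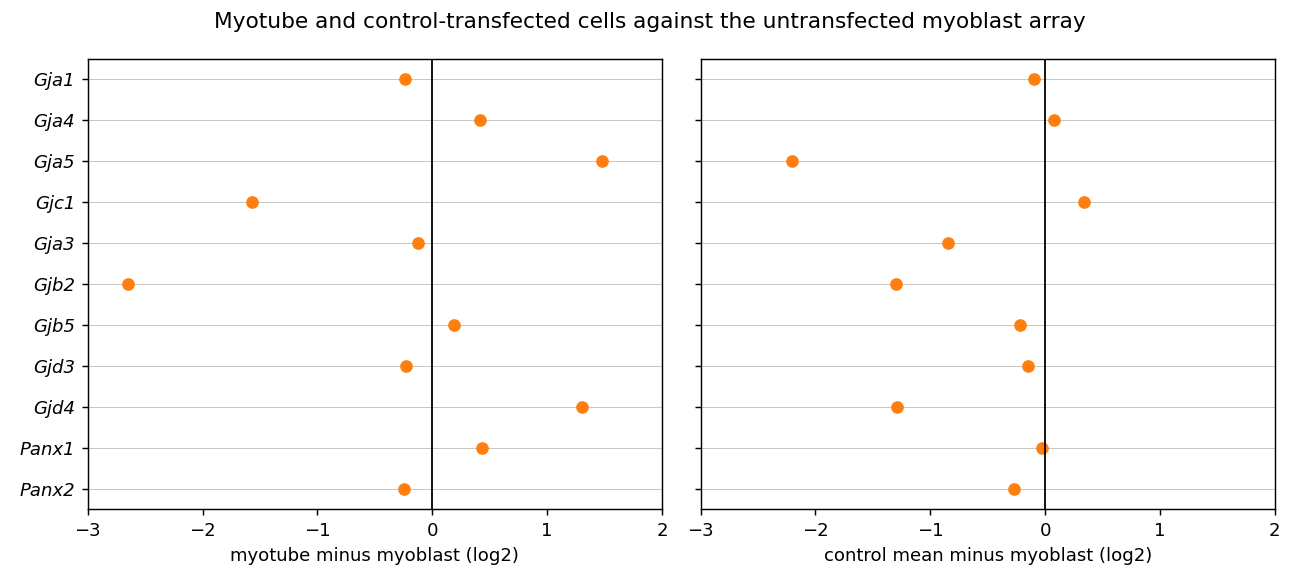
Log2 differences of the myotube array (left) and of the control mean (right) from the single untransfected myoblast array, for the 4 genes and for the other connexin and pannexin genes that are not dim, and Gjd4. Each point is a single difference without an error. Gja5 stands at 1.47 in the left panel and -2.21 in the right, and Gjc1 at -1.57 and 0.34.

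Among the other connexins and the pannexins, which form related channels in single membranes, few pairs passed the threshold. Of 19 such genes 15 were measured and 9 of those were dim. Of 105 gene and mimic pairs, 2 rose and 2 fell, beside 7.74% and 6.26% of all pairs. At an unadjusted p under 0.05 in limma there were 13. With the replicate block 8 passed, with no all-gene share for that setting beside it. Gjb2, which encodes Cx26 of epithelia and the inner ear, read 7.75, 7.90 and 7.23 in miR-1 cells, against 9.25, 8.18 and 8.66 in control cells. All its miR-1 values lay below the control, and the difference was -1.07 ± 0.322 (SE), or 2.09-fold lower (limma, adjusted p = 0.0171). It did not pass without control replicate 1 (-0.79, limma adjusted p = 0.119) or miR-1 replicate 3 (-0.87, limma adjusted p = 0.109). Panx1, a channel for ATP release, read 9.41, 8.99 and 9.08 in miR-29a cells, against 9.77, 9.64 and 9.59 in control cells, and fell by 0.51 on the log2 scale (SE 0.102, limma adjusted p = 0.00171). Gjb5 rose under miR-365, to 7.46, 7.24 and 7.39, against 6.87, 7.03 and 6.98 in control cells, by 0.40 ± 0.0892 (limma, adjusted p = 0.00191). Gjd4, the mouse Cx39 of developing muscle, read 6.81, 6.69 and 6.67 in miR-34a cells, against 6.30, 6.44 and 6.31 in control cells. Its difference was 0.37 ± 0.0963 (limma, adjusted p = 0.0118), and the control level is dim. It did not pass without control replicate 1 or 3 or miR-34a replicate 1 (0.33 to 0.35). In the untransfected arrays, Gjb2 read 7.34 in the myotube and 9.99 in the myoblast array, 6.29-fold lower, and Gjd4 read 8.94 and 7.64.

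Proteins that anchor, phosphorylate or remove connexins were examined as a list of 18 genes, 17 of them measured. This list and the cadherin and transcription factor lists below were chosen with earlier results of these data known. Genes are named from them for the largest differences among those past the threshold, so their p-values describe selected genes. Of 119 gene and mimic pairs 22 rose and 12 fell, beside 7.74% and 6.26% of all pairs. The number that passed ran from 2 higher and 0 lower of 17 under miR-34a, where 5.62% of all genes were higher and 6.06% lower, to 4 higher and 3 lower under Let-7b, where 5.46% were higher and 5.46% lower. Prkca, a protein kinase C that phosphorylates Cx43, read 10.34, 10.09 and 9.98 in miR-365 cells, against 11.18, 10.95 and 11.02 in control cells. It fell by 0.91 under miR-365 (SE 0.0933, limma adjusted p = 2.27e-07). Erp29, a chaperone of Cx43 assembly, read 8.44, 8.22 and 8.15 in miR-29a cells, against 9.06, 9.14 and 9.18 in control cells. It fell by 0.85 under miR-29a (SE 0.084, limma adjusted p = 4.09e-07). Both passed in all alternatives run. Cav1, a membrane scaffold that binds Cx43, rose by 0.68 ± 0.16 under miR-1 (limma, adjusted p = 0.00274). Cav3, the muscle caveolin, rose by 0.66 ± 0.144 under miR-1 and was at -0.61 under miR-29a (limma, adjusted p = 0.00126 and 0.00664). Cav1 under miR-145, at 0.57, and Cav3 under miR-22, at -0.46, also passed (limma, adjusted p = 0.0336 and 0.034). The first was lost without control replicate 2 or 3 or miR-145 replicate 1 or 3 (0.47 to 0.59). The second was lost without any one control replicate or miR-22 replicate 2 or 3 (-0.49 to -0.38).

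Cadherin junctions hold myoblasts together and are needed for gap junctions to form. Of 49 pairs over 7 genes, 14 rose and 7 fell, beside 7.74% and 6.26% of all pairs. The 7 increases of Cdh2 are among the 14. Cdh2, which encodes N-cadherin, rose under all 7 mimics, from 0.27 under miR-365 to 0.61 under miR-22 (SE 0.0638), in all alternatives, against the same control values. Jup, which encodes plakoglobin, was at -0.51 under Let-7b and -0.47 under miR-34a (limma, adjusted p = 7.98e-04 and 0.00192), both past the threshold in all alternatives run. At -0.32 under miR-145 it also passed (limma, adjusted p = 0.0446), but not without miR-145 replicate 3 (-0.19) or any one control replicate (-0.37 to -0.24). That call was also lost with a further quantile normalization, without the variance trend and in a model without the other 6 mimics. Ctnnb1, which encodes beta-catenin, fell under miR-29a, by 0.39, and rose under 4 mimics. Its increase was 0.31 under miR-365 (limma, adjusted p = 4.37e-05 under miR-29a and 2.68e-04 under miR-365). It was 0.21 under Let-7b, 0.21 under miR-1 and 0.23 under miR-34a (limma, adjusted p = 0.0135, 0.00661 and 0.00822). The Let-7b call was lost without control replicate 2 or 3 or Let-7b replicate 3 (0.19 to 0.20), the miR-1 call without miR-1 replicate 3 (0.18) and the miR-34a call without miR-34a replicate 3 (0.20). Cdh11, which encodes cadherin-11 of mesenchymal cells, was at -0.48 under miR-1 (limma, adjusted p = 0.00904), a call lost without miR-1 replicate 3 (-0.25, limma adjusted p = 0.101) and in a model without the other 6 mimics (limma adjusted p = 0.0746). Under miR-34a it was at 0.50 (limma, adjusted p = 0.0137), a call lost without control replicate 3 or miR-34a replicate 1 (0.46 and 0.42). Under miR-145 it was at 0.48 (limma, adjusted p = 0.0287), a call lost without any one control replicate or miR-145 replicate 2 or 3 (0.43 to 0.51).

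Of 13 measured transcription factors known to act on connexin genes, 6 fell and 1 rose under miR-1, the mimic with the largest all-gene shares (10.5% lower and 13.2% higher). Under the other mimics 5 pairs rose and 5 fell. Over all 91 pairs 6 rose and 11 fell, beside 7.74% and 6.26% of all pairs, and with the replicate block 26 passed in place of 17. Without control replicate 3 the number was 8, and without control replicate 2 it was 9. The all-gene shares are those of the main fit, so these changes cannot be called particular to the list. Hey2, a Notch effector of cardiac and vascular development, rose by 0.78 ± 0.0999 under miR-145 (limma, adjusted p = 2.92e-05). At 0.32 under miR-365 it also passed (limma, adjusted p = 0.0225), but not without control replicate 2 or 3 or miR-365 replicate 1 or 3 (0.25 to 0.30), nor in a model without the other 6 mimics. Sp3, a GC-box binding factor, fell by 0.54 under Let-7b (SE 0.0788, limma adjusted p = 5.45e-05). With all its probe sets averaged the difference was -0.28 (limma, adjusted p = 0.00716). Sp3 also passed under miR-1, at -0.25, and under miR-145, at -0.29 (limma, adjusted p = 0.0223 and 0.0245). With probe sets averaged these were -0.17 and -0.13 and did not pass. The first was also lost without control replicate 2 or 3 or miR-1 replicate 1 or 2 (-0.25 to -0.22). The second was lost without control replicate 2 or 3 (-0.28 and -0.27), without miR-145 replicate 3 (-0.19), and in a model without the other 6 mimics. Mef2c, a muscle regulator, was at 0.69 under miR-34a and 0.62 under miR-1 (limma, adjusted p = 0.035 and 0.0369). Tbx3, a repressor of Gja5 and Gja1 in the conduction system, was at 0.50 under Let-7b (limma, adjusted p = 0.0199). Mef2c did not pass under miR-34a without control replicate 2 or 3 or miR-34a replicate 1 or 3 (0.59 to 0.69). Under miR-1 it did not pass without control replicate 2 or 3 or miR-1 replicate 2 or 3 (0.39 to 0.615), nor in a model without the other 6 mimics. Tbx3 did not pass without control replicate 2 or 3 or Let-7b replicate 1 or 3 (0.40 to 0.49). Mef2c read 12.36 in the myotube array, against 11.29 in the untransfected myoblast array, and averaged 9.06 in the control.

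The bases before the annotated start of Gja1 and Gja5 are shown because the motifs of several of these factors can be read in them. Both are 250 bases from RefSeq on GRCm38.p6, 5′ to 3′ on the gene's strand, with motif matches in capitals. Searched on both strands were TGANTCA for AP-1, GGGCGG for the Sp1 GC box, CANNTG for the E-box of myogenic factors and AGGTGT for T-box factors.
Gja1, chr10:56377050-56377299, + strand: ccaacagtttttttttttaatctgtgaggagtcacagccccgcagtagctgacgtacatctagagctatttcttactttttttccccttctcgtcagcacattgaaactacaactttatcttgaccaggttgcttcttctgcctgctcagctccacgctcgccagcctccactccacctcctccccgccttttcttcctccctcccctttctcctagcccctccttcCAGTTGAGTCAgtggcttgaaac
Gja5, chr3:97032152-97032401, + strand: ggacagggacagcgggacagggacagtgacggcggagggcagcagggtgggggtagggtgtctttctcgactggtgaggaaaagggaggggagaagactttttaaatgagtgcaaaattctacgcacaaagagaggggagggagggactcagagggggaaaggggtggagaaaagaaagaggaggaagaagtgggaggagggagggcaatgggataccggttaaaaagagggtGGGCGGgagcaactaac
Upstream of Gja1 an E-box starting at -23 and an AP-1 motif starting at -19 overlap in the capitals. Upstream of Gja5 and of Gja4 there is a single GC box each, starting at -17 and -79. Neither of these held an AP-1 motif or an E-box, and Gja1 held no GC box. The T-box letters AGGTGT were found upstream of none of Gja1, Gja4 and Gja5. No promoter sequence was found for Gjc1. Of 32851 mouse promoters of this length, 6.75% hold the AP-1 letters, 66.2% an E-box, 32.7% the GC box and 11.8% AGGTGT. A match describes letters and not a site in use.

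The genes most like each member over the 24 values were looked up among 13506 genes above the dim level. Gjc1 had the closest companions, with Pearson's r of 0.966 for Slbp, 0.95 for Stmn1 and 0.948 for Brip1os. Slbp binds the stem-loop of histone mRNAs, and Stmn1 encodes the microtubule regulator stathmin. Slbp differed by -0.97 under miR-1 and -0.96 under miR-22, and Stmn1 by -0.96 and -0.69. Both were also lower in the myotube than in the myoblast array, at -0.70 and -1.61. For Gja5 the closest were Mex3a at 0.845, Fam78a at 0.842 and Tmod1 at 0.821. Tmod1, which caps actin filaments in sarcomeres, differed by 1.03 under miR-1 and 0.92 under miR-34a, so unlike Gja5 its largest difference was not under miR-34a. Tmod1 was higher in the myotube than in the myoblast array by 1.78 and Fam78a by 0.70, while Mex3a was at -0.67. Under miR-1, where Gja5 was 0.55 higher, Fam78a was at 0.32 and Mex3a at -0.30. For Gja1 the closest were Oxct1 at 0.899, Slc39a9 at 0.895 and Ctcf at 0.889, with differences of -0.74, -0.59 and -0.61 under miR-1. For the dim Gja4 they were Hcrt, Ccdc40 and Rspo1, at 0.774 to 0.766. The 24 values share arrays and groups, and likeness here is a description.

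**Figure D4:**
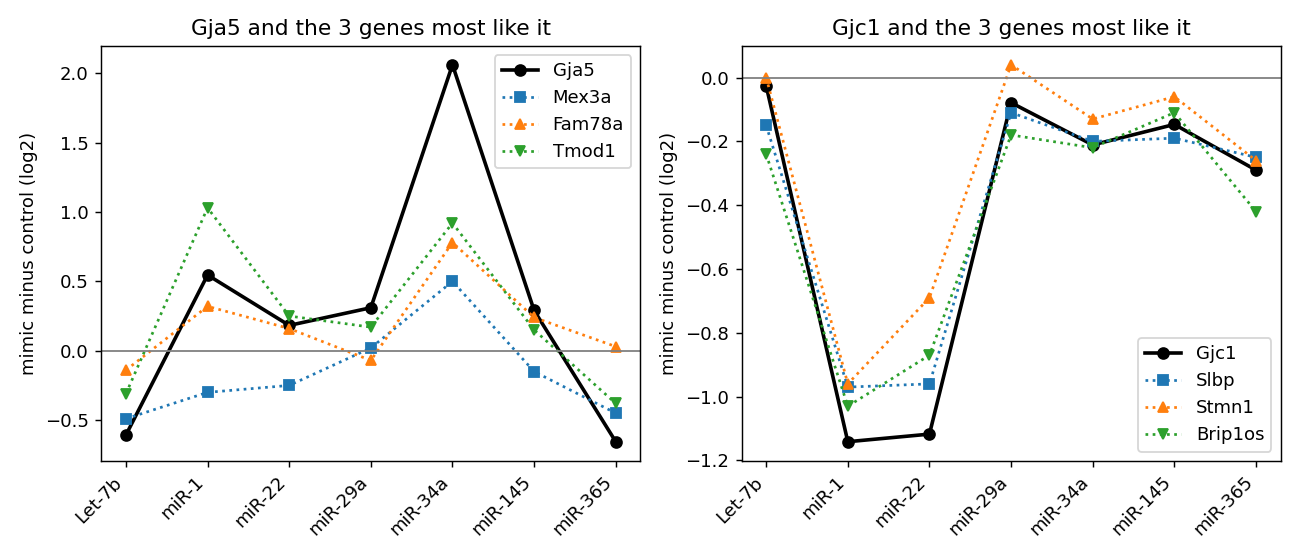
Log2 difference from the control under each of the 7 mimics for Gja5 (left) and Gjc1 (right), each with the 3 genes whose 24 values correlate best with it. Points are group mean differences joined by lines for reading only. Gjc1 and Slbp follow each other from -1.14 and -0.97 under miR-1 to -0.03 and -0.15 under Let-7b, while Gja5 at 2.06 under miR-34a stands above its companions at 0.50 to 0.92.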

How the data were processed

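RNA of C2C12 cultures was measured on 29 Affymetrix mouse gene arrays, with the technical repeats of the control counted as arrays. The authors deposited log2 values, made with RMA in Affymetrix Expression Console 1.1, per the submitters' processing notes. RMA corrects background, equalises quantiles across arrays and summarises probes, which compresses differences near the dim level. Array number, not read depth, limits precision. Of 35556 probe sets, 21789 had 1 symbol, 1621 several and 12146 no listed gene. Each of 19938 genes was represented by its single-symbol probe set with the highest mean over the 27 transfected arrays.

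One model over 24 values in 8 groups was fitted with limma 3.58.1 in R 4.3.3, with trended variances, no block and no filter, and each mimic was compared with the control. P-values were adjusted by Benjamini-Hochberg over all genes, threshold 0.05. The script was tested on simulated data. Members, lists and tests were chosen with earlier results of these data known. Named were the 4 members, every other connexin or pannexin past the threshold, the 4 genes per list with the largest differences among those past it, apart from the control and not dim, and the 3 genes most correlated with each member.

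Replicates are separate transfections, per the labels, and numbers were checked for pairing. After group means were taken out, the mean correlation of each of the 24 samples with samples of other groups was highest for those of its own number. For miR-22, miR-29a, miR-34a and miR-365 the deviations of all 3 samples correlated with the same-numbered control above 0.1 (lowest 0.122), but not for Let-7b, miR-1 and miR-145 (lowest -0.0362). A fit with the replicate number as a block was therefore run as a paired alternative. The main fit has no such term, so its residual spread includes what same-numbered samples share. More pairs passed in the paired fit, for the members and for each related list counted. Other alternatives left out or blocked the technical repeats, added a quantile normalization, left out the 40% dimmest genes, dropped the variance trend, modelled 1 mimic at a time, averaged probe sets, and left out each replicate.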

Additional observations from a re-analysis of the deposited data

How the results depend on the processing

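Of 385 alternative values of the 4 connexin genes, 382 moved by less than the pooled spread between replicates and none changed direction where it had passed the threshold. The exceptions came from leaving out 1 replicate. Gja1 under miR-1 ranged from -1.23 to -0.95, Gja5 under miR-145 from 0.12 to 0.57, and Gjc1 under miR-22 from -1.20 to -0.99, over all replicates left out in turn. The cause was not tested. The replicate block, the blocked technical repeats and the dimness filter leave every difference as it is. So do the dropped variance trend and the model of 1 mimic at a time. The count of 382 therefore includes values that could not move, and is no measure of stability. The number of connexin gene and mimic pairs past the threshold was 11, 12 with the replicate block, and from 5 (without control replicate 3) to 11 with a replicate left out. For the other connexins and pannexins it was 4, against 8 with the replicate block, 8 with the technical repeats left out, and 2 (without control replicate 1) to 6 with a replicate left out. For the transcription factors it was 17, against 26 with the replicate block and 8 to 19 with a replicate left out. Each left-out replicate leaves fewer samples in the fit. For the scaffold list the counts were 34 and 44 with the block, and for the cadherin list 21 and 28. The all-gene share under each alternative is not given here. A change in these counts therefore cannot be told apart from a change in calls over all genes. Of 514 alternative values of the named genes that are not members, 451 kept their call, 63 lost it and 0 turned. Under the settings that leave a difference as it is, none could turn. Of the 37 pairs of these named genes, 20 passed in all alternatives run. Gja4 has no value with the 40% dimmest genes left out, nor have Gjb5, Gjd4 and Hey2 among the named genes. Averaging probe sets changed no member, since each has 1. It moved Sp3 from -0.54 to -0.28 under Let-7b, and Sp3 lost its calls under miR-1 and miR-145. The dim level limits what can be seen of Gja4, and of Gja5 under Let-7b and miR-365.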
